A study of Mus musculus with 14 samples.

Results

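The interferon response genes described here are 37 mouse genes that interferons are known to switch on, taken from a list of symbols. All 37 were found among the 24983 genes with a count in the livers studied, each under 1 Ensembl gene, and all 37 passed the filter on low counts that left 13131 genes to test. By role they fall into 22 antiviral effectors, 4 transcription factors, 8 interferon-gamma-induced GTPases and 3 genes of MHC class I peptide processing.

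RNA was sequenced from whole liver of mice kept on a high-fat diet, 6 of which had received a transplant and 8 an empty scaffold. The transplant consisted of pre-adipocytes of brown fat (from its stromal fraction), which were differentiated and then placed in the recipients on silk scaffolds, and these livers are titled iBAT 2x. The empty scaffold recipients had the scaffold without cells and are titled Sham-WT. The labels used here give no strain, sex, age, donor, site or time after surgery, and do not explain "2x". They also do not say outright whether each library came from its own animal, and the p-values below rest on the spread between libraries.

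Interferons are secreted proteins that signal through cell surface receptors and JAK kinases to STAT transcription factors. Type I and type III interferons assemble a complex with STAT2 and IRF9 that binds interferon-stimulated response elements and turns on antiviral genes, whereas interferon-gamma acts mainly at gamma-activated sites and is the chief inducer of the GTPases that attack vacuoles of intracellular microbes and of the immunoproteasome. Hepatocytes, Kupffer cells and endothelium all carry interferon receptors, and a resting liver keeps a low level of these transcripts.

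Of the 37 genes, 1 was called between the groups at a Benjamini-Hochberg adjusted p under 0.05 in edgeR's quasi-likelihood test, against 7.54% of all genes tested (3.31% higher and 4.23% lower). That gene was Ifi35, which was higher in transplant livers by 0.42 ± 0.12 on the log2 scale (SE). In whole liver, fewer cells of a type and less RNA per cell cannot be told apart. Among the 37, 16 had a fold change above 0 and 21 below 0 (52.9% of all genes were below 0), with a median log2 fold change of -0.05 (range -0.78 to 0.47), beside a median of -0.02 over all genes. At an unadjusted p under 0.05 stood 9 of the 37 members and 30.0% of all genes. In CPM (gene counts scaled to library size), the groups overlapped for all 37 genes, while they did not overlap for 1.27% of all genes tested. In this fit the 95% interval of the fold change lay within 2-fold in either direction for 31 of 37 genes and within 1.5-fold for 20. These intervals do not cover the length and GC trends of the libraries described below. Xaf1, with an interval of -0.25 to 0.40, stood at -0.28 once those were removed. DESeq2 called 3 members (Ifit2, Ifi27 and Ifi35) beside 15.0% of all genes, edgeR with the range of the sample title numbers as a covariate called 4 (Ifit2, Ifi27, Ifi35 and Parp14) beside 19.6%, and edgeR with effective lengths as an offset called 0 beside 2.4%.

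Libraries held 22898793 to 28910968 estimated counts in the transplant group and 19482580 to 28723928 in the empty scaffold group, a difference within the spread between libraries (two-sided exact permutation test of the means, p = 0.31). Summed levels of 5 hepatocyte markers were 79300 to 127000 CPM in transplant livers and 70600 to 126000 CPM in empty scaffold livers. Libraries differed in how level related to transcript length: the slope of log2 level per doubling of length, relative to the mean library, was -0.31 to 0.03 in transplant libraries and -0.11 to 0.26 in empty scaffold libraries. A fit with length and GC trends removed from every library was therefore made as well, and the plot of fold changes by role shows it for every member. It called 3.56% of all genes and none of the 37 members. At an unadjusted p under 0.05 in that fit stood 6 of the 37 members and 2859 of 13131 genes. Without the 3 libraries with a slope beyond 0.25 in size (transplant 1, empty scaffold 3 and 4), edgeR called 0 members and 0.0% of all genes. An unadjusted p under 0.05 was then held by 5 of the 37 members and 1633 of 12960 genes. The members then stood 24 above 0 and 13 below, with a median of 0.08, against -0.05 over all 14 libraries. These 3 libraries were picked after the data were seen. Transplant 1 was also low in the members and empty scaffold 3 and 4 were high, so leaving them out raises the fold changes by itself.

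The sequences just before the starts of these genes show the element the transcription factors are known to read, and windows of 11 of the 15 members that carry it are given here as examples (Gbp3, Oas3, Rsad2 and Stat2 carry it too). RefSeq promoters (build GRCm38.p6, 250 bases before to 50 after each start) were found for 27 of the 37 genes, in 31 windows. The core of the interferon-stimulated response element was searched as GAAA, any 2 bases and GAAA again, and the core of the gamma-activated site as TTCNNNGAA, each on both strands, with overlapping matches of the same core counted. The shorter core reads the same on both strands, and in the windows shown no match of it overlapped a match of the longer. Below, matches are in capitals in an otherwise lower-case run, 5′ to 3′ on the strand of the gene, so that a run of TTTC, 2 bases and TTTC marks a match on the opposite strand.
Isg15: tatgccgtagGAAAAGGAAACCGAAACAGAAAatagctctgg (chr4:156200865-156200906, minus strand)
Ifit1: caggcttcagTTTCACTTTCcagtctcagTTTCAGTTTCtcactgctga (chr19:34640775-34640823, plus strand)
Ifit3: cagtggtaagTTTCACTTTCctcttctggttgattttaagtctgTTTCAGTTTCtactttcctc (chr19:34583363-34583426, plus strand)
Ifit3b: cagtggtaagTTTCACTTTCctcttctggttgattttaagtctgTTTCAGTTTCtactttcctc (chr19:34607759-34607822, plus strand)
Oas1a: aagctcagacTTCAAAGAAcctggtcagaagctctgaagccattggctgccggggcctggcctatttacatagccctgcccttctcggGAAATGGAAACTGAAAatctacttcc (chr5:120907520-120907633, minus strand)
Oas1g: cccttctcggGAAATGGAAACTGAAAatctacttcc (chr5:120887606-120887641, minus strand)
Gbp2: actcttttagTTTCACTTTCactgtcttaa (chr3:142620594-142620623, plus strand)
Gbp7: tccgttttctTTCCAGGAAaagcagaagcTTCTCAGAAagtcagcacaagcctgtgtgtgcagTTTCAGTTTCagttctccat (chr3:142530220-142530302, plus strand)
Irgm1: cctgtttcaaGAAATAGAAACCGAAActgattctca (chr11:48871425-48871460, minus strand)
Igtp: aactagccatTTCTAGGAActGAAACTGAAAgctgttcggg (chr11:58199501-58199541, plus strand)
Irgm2: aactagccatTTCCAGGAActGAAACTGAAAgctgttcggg (chr11:58214892-58214932, plus strand)

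The response element core was present in 15 of 31 member windows (48.4%) and in 1131 of 32851 promoters of the RefSeq table (3.44%). It was found in 6 of 6 GTPase genes with an entry, in 8 of 14 antiviral effectors, in Stat2 alone of 4 transcription factors and in 0 of 3 class I processing genes. Isg15 held 3 overlapping matches, of which the most distant began 78 bases before the start. In Ifit1 the matches began 104 and 85 bases before the start. The 64-base windows of Ifit3 and Ifit3b were identical, and the 41-base windows of Igtp and Irgm2 differed at 1 base. The shorter core TTCNNNGAA was present in 8 of 31 member windows (25.8%) and in 8.30% of all promoters. By role it was in 3 of 14 antiviral effectors (Ifi35, Ifit2 and Oas1a) and 3 of 6 GTPases (Gbp7, Igtp and Irgm2). Of the 4 transcription factors it was in Irf1, and of the 3 class I processing genes in Psmb8. A match is a description of letters in the window, and no match says only that these letters are not there. The genes with no RefSeq entry were Oas2, Mx1, Mx2, Usp18, Ifi27, Dhx58, Parp14, Zbp1, Gbp6 and Iigp1.

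The gamma-activated site core of Irf1, the whole window of Ifi35, the only member called, and the window that Tap1 shares with Psmb9 follow, with matches of TTCNNNGAA in capitals.
Irf1: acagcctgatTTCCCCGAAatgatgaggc (chr11:53769914-53769942, plus strand)
Ifi35 promoter: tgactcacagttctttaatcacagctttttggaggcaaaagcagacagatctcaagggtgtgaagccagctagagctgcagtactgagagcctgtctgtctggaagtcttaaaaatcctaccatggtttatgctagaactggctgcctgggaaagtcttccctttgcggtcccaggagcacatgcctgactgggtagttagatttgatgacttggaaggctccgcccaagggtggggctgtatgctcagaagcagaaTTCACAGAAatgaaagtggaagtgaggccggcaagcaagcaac (chr11:101448162-101448461, plus strand)
Tap1 promoter: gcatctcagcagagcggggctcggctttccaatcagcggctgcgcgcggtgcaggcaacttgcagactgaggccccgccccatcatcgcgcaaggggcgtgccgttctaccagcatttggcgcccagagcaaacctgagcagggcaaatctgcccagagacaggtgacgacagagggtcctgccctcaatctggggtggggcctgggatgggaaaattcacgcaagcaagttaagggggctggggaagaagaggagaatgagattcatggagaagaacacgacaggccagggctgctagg (chr17:34187306-34187605, plus strand)
In Ifi35 the match began at base 8 counted from the annotated start, inside the transcribed part of the window. The Tap1 and Psmb9 windows overlapped by 275 bases on opposite strands, with starts 226 bases apart, so both genes share nearly the whole stretch, which held neither core. The median log2 fold change was -0.11 over the 15 genes with the response element core in the window and -0.01 over the 12 without.

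Levels differed widely between members. Per length, in TPM as deposited, a unit that allows for transcript length, the median over 14 libraries was highest for Iigp1 at 116 TPM and Ifi27 at 101 TPM, followed by Psmb8 at 40.0 TPM, Isg15 at 28.7 TPM and Irgm1 at 27.9 TPM. The lowest medians were 0.214 TPM for Oas3, 0.245 TPM for Mx1 and 0.347 TPM for Oas2. The GTPase Iigp1 and the small membrane protein Ifi27 thus stood well above the classical antiviral genes such as Rsad2 (3.93 TPM) and Ifit1 (7.80 TPM) in these livers.

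Among the antiviral effectors, Ifi35, which binds the STAT-interacting protein NMI, is the gene that passed the test. Ifi35 had 30.3, 24.4, 30.8, 36.6, 34.0 and 31.9 CPM in transplant libraries 1 to 6, against 21.3, 19.0, 20.2, 21.5, 21.6, 28.3, 32.1 and 23.8 CPM in empty scaffold libraries 1 to 8. Every transplant library was above 6 of the 8 empty scaffold libraries, and the overlap came from empty scaffold libraries 6 and 7. The mean was 31.3 ± 4.11 CPM in transplant livers (SD, n = 6) and 23.5 ± 4.47 CPM in empty scaffold livers (SD, n = 8), a log2 difference of 0.42 with a 95% interval of 0.16 to 0.68 (edgeR quasi-likelihood test, adjusted p = 0.0470). Its value after removal of the length and GC trends was 0.29 (edgeR adjusted p = 0.0522), and with the title number range as a covariate besides it was 0.29 and called by edgeR, beside 6.57% of all genes. It was called in 3 of the 14 fits that each left out 1 library (transplant 2, empty scaffold 6 or empty scaffold 7), with adjusted p from 0.0178 to 0.106 over the 14. In TPM as deposited, the Ifi35 median was 20.6 in transplant livers and 20.5 in empty scaffold livers. Deposited TPM does not carry the scaling of the CPM values, and for most members its median was lower in transplant livers. Irf7, for example, had medians of 12.9 and 18.6 TPM at means of 33.1 and 32.3 CPM. The TPM medians of Ifi35 therefore do not speak to its call.

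Ifi27 and Isg15, a small membrane protein and the ubiquitin-like modifier that is attached to proteins of infected cells, were the other effectors whose intervals lay above 0. Ifi27 had 125, 82.9, 121, 79.5, 97.5 and 86.2 CPM in transplant libraries 1 to 6, against 85.2, 74.3, 48.5, 67.1, 85.7, 71.1, 83.2 and 53.7 CPM in empty scaffold libraries 1 to 8. Transplant libraries 1, 3, 5 and 6 were above every empty scaffold library, and transplant libraries 2 and 4 were among them. Its log2 fold change was 0.47 ± 0.15 (SE, 95% interval 0.17 to 0.78) with an edgeR adjusted p of 0.0533, and 0.18 with the trends removed (adjusted p = 0.522). Isg15 had a lowest, median and highest level of 14.6, 17.7 and 25.7 CPM in transplant livers, against 10.4, 14.3 and 23.1 CPM in empty scaffold livers. The 2 ranges overlapped over most of their width, with a log2 fold change of 0.38 ± 0.17 (SE, edgeR adjusted p = 0.135) that stood at 0.08 with the trends removed.

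The IFIT proteins bind viral RNA and block its translation. Ifit2 had 1.83, 2.24, 3.62, 3.02, 2.19 and 2.53 CPM in transplant libraries 1 to 6, against 2.36, 3.03, 7.05, 6.13, 3.28, 3.51, 4.26 and 4.87 CPM in empty scaffold libraries 1 to 8. Empty scaffold libraries 3 and 4 were highest and transplant library 1 lowest, and the groups overlapped between 2.36 and 3.62 CPM. The log2 fold change of Ifit2 was -0.75 ± 0.24 (SE, 95% interval -1.25 to -0.25, edgeR adjusted p = 0.0572). Ifit1, which recognises RNA caps that lack a methyl group, pointed the other way, with 12.1, 17.7 and 28.8 CPM (lowest, median and highest) in transplant livers and 12.0, 14.6 and 20.9 CPM in empty scaffold livers. Its log2 fold change was 0.27 ± 0.19 (95% interval -0.14 to 0.68). Ifit3, a partner of Ifit1, and its near copy Ifit3b had log2 fold changes of 0.11 and -0.03, and that of Ifit3 was -0.01 with the length and GC trends removed. Of the 31-base words of Ifit3, 61.8% also occur in Ifit3b, so their reads cannot be told apart well, and their sum was 32.2 ± 5.53 CPM in transplant livers (SD, n = 6) and 30.4 ± 5.48 CPM in empty scaffold livers (SD, n = 8).

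The OAS enzymes make 2′-5′ oligoadenylates, which activate the nuclease RNase L, and Oasl1 and Oasl2 are related proteins. Oasl2 had 2.36, 2.53, 3.66, 3.37, 2.27 and 2.45 CPM in transplant libraries 1 to 6, against 3.09, 3.24, 7.25, 5.82, 3.41, 3.11, 3.25 and 4.0 CPM in empty scaffold libraries 1 to 8. In 4 transplant libraries the level was below every empty scaffold library, while transplant libraries 3 and 4 lay among them. The log2 fold change of Oasl2 was -0.59 ± 0.22 (SE, 95% interval -1.04 to -0.14, edgeR adjusted p = 0.0874) and -0.67 with the trends removed. Oas3 averaged 0.727 ± 0.244 CPM in transplant livers (SD, n = 6) and 1.17 ± 0.349 CPM in empty scaffold livers (SD, n = 8), at -0.69 ± 0.25 on the log2 scale (SE, adjusted p = 0.0892). Oas2 stood at -0.55 with a wide 95% interval of -1.28 to 0.17. Oas1a and Oas1g, of which 68.8% and 55.1% of the words are shared with another gene, stood at -0.29 and -0.39, and their sum was 3.90 ± 1.33 CPM in transplant livers (SD, n = 6) and 4.84 ± 1.55 CPM in empty scaffold livers (SD, n = 8). Oasl1, which in mice restrains translation of Irf7, had a log2 fold change of -0.05 with a 95% interval of -0.31 to 0.21. All 6 genes thus had a fold change below 0, except Oasl1 at 0.01 with the trends removed, and none passed the test.

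Other effectors spread to both sides of 0. Rsad2, or viperin, which makes a chain-terminating nucleotide, had 14.3, 23.9, 24.0, 15.1, 9.96 and 8.17 CPM in transplant libraries 1 to 6, against 12.7, 9.40, 16.3, 17.0, 12.8, 14.1, 17.6 and 11.5 CPM in empty scaffold libraries 1 to 8. The 2 highest values and the lowest of all 14 were in transplant libraries, and the log2 fold change was 0.19 ± 0.22 (95% interval -0.27 to 0.65). Usp18, the protease that removes Isg15 and damps the type I receptor, had the same median in both groups, 14.2 CPM, with ranges of 9.66 to 24.3 CPM in transplant livers and 12.4 to 17.4 CPM in empty scaffold livers. Mx1 and Mx2, dynamin-like GTPases that trap viral particles, stood at 0.35 (95% interval -0.81 to 1.52) and 0.32 (95% interval -0.13 to 0.77). Mx1 had no count in transplant library 2, which allows up to 0.121 CPM at 3 counts, and 2.18 CPM in transplant library 4, so that it was too low and uneven for the test to bound.

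Parp14, an ADP-ribosyltransferase with the longest transcripts of the 37, had 10.9, 18.3, 20.9, 14.5, 13.9 and 13.5 CPM in transplant libraries 1 to 6, against 20.5, 24.1, 33.7, 29.5, 20.4, 13.1, 14 and 17.3 CPM in empty scaffold libraries 1 to 8. Empty scaffold libraries 1 to 5 were above 5 of the 6 transplant libraries, and empty scaffold libraries 6 to 8 lay among them. The log2 fold change of Parp14 was -0.49 ± 0.20 (SE, edgeR adjusted p = 0.117), against -0.21 with the trends removed. Xaf1, a promoter of apoptosis, Zbp1, a sensor of Z-form nucleic acid that can start necroptosis, Dhx58, a RIG-I-like helicase, and Ifi44 stood at 0.08, -0.02, -0.14 and -0.24, each with an interval that held 0. Xaf1 stood at -0.28 with the trends removed.

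**Figure D1:**
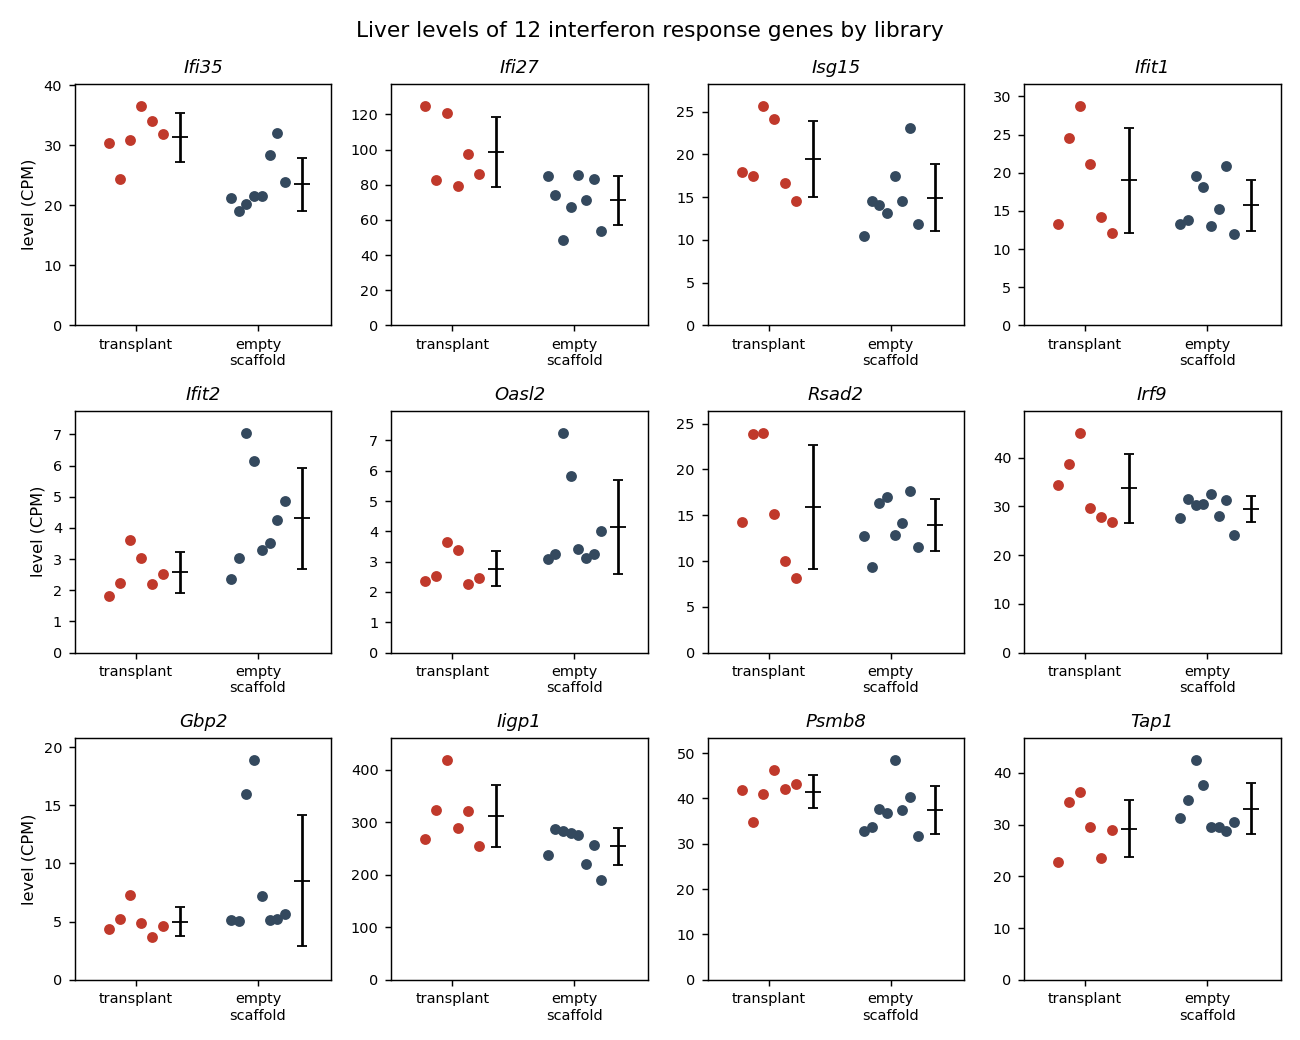
Level in CPM (vertical axis, from 0) of 12 of the genes, with 1 point per library (6 transplant, 8 empty scaffold) and the mean ± SD beside each group. For Ifi35 the transplant mean is 31.3 CPM and the empty scaffold mean 23.5 CPM, while for Gbp2 the spread of the empty scaffold group comes from the libraries at 16.0 and 18.9 CPM.

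The 4 transcription factors carry the signal into the nucleus or amplify it, and over all 14 libraries none was called by edgeR or DESeq2, with 0 at an unadjusted p under 0.05 (Irf9 was called within 1 range of title numbers, given with those ranges). Irf9, the DNA-binding part of the type I complex, had 34.3, 38.6, 45.1, 29.7, 27.8 and 26.7 CPM in transplant libraries 1 to 6, against 27.7, 31.6, 30.3, 30.4, 32.5, 28.1, 31.3 and 24.2 CPM in empty scaffold libraries 1 to 8. Transplant libraries 1 to 3 were above all 8 empty scaffold libraries and transplant libraries 4 to 6 were among them. The log2 fold change of Irf9 was 0.19 ± 0.12 (SE, 95% interval -0.05 to 0.44, edgeR adjusted p = 0.271). Stat2, another part of the type I complex, averaged 29.7 ± 5.41 CPM in transplant livers (SD, n = 6) and 34.0 ± 4.76 CPM in empty scaffold livers (SD, n = 8), at -0.19 ± 0.12 (SE). Irf1, an early interferon-gamma target, averaged 23.8 ± 3.77 CPM in transplant livers (SD, n = 6) and 27.4 ± 4.61 CPM in empty scaffold livers (SD, n = 8), at -0.20 ± 0.12 (SE). Irf7, the amplifier of interferon-alpha production, was the most tightly bounded of the 4, with a log2 fold change of 0.03 and a 95% interval of -0.19 to 0.26.

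Of the 8 interferon-gamma GTPases over all 14 libraries none was called by edgeR or DESeq2, 2 (Gbp2 and Iigp1) had an unadjusted p under 0.05, 6 stood below 0 and 2 above (5 and 3 with the trends removed), and the median log2 fold change was -0.12. Without the 3 libraries of steepest length slope (transplant 1, empty scaffold 3 and 4) the direction turned, with 6 above 0, 2 below and a median of 0.13. These 3, picked after the data were seen, were also extreme in the GTPases themselves. Their median deviations from the gene mean, in log2(CPM + 0.5), were -0.43, 0.41 and 0.61. Leaving them out thus raises these fold changes by itself, and a part of length slope cannot be told apart. Guanylate-binding proteins coat and break open vacuoles that hold microbes. Gbp2 had 4.35, 5.22, 7.28, 4.86, 3.67 and 4.63 CPM in transplant libraries 1 to 6, against 5.16, 5.03, 16.0, 18.9, 7.17, 5.11, 5.20 and 5.66 CPM in empty scaffold libraries 1 to 8. Empty scaffold libraries 3 and 4 stood far above the other 12 libraries, which lay between 3.67 and 7.28 CPM. The log2 fold change of Gbp2 was -0.78 ± 0.33 (SE, 95% interval -1.47 to -0.08, edgeR adjusted p = 0.127). Without empty scaffold library 3 it was -0.59, without empty scaffold library 4 -0.50, and without both of them and transplant library 1, the libraries with the steepest length slopes, -0.11. Gbp6, whose words are shared with other genes to 74.2%, mostly with the predicted gene Gm43302, had 10.6, 14.3 and 34.5 CPM (lowest, median and highest) in transplant livers and 16.1, 18.7 and 42.8 CPM in empty scaffold livers, at -0.37 (95% interval -0.97 to 0.23). Gbp3 and Gbp7 stood at -0.09 and -0.11, and at -0.12 and 0.04 with the trends removed.

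The other 4 GTPases belong to the immunity-related family, of which Irgm1, Irgm2 and Igtp protect the cell's own membranes and Iigp1 loads onto vacuoles of microbes. Iigp1 had 268, 323, 419, 290, 321 and 255 CPM in transplant libraries 1 to 6, against 238, 287, 284, 280, 276, 221, 257 and 191 CPM in empty scaffold libraries 1 to 8. Transplant libraries 2, 3, 4 and 5 were above every empty scaffold library and transplant libraries 1 and 6 were among them. Iigp1 averaged 313 ± 59.1 CPM in transplant livers (SD, n = 6) and 254 ± 34.8 CPM in empty scaffold livers (SD, n = 8), at 0.30 ± 0.12 on the log2 scale (SE, 95% interval 0.04 to 0.56, edgeR adjusted p = 0.117). Igtp, Irgm2 and Irgm1 stood at 0.06, -0.13 and -0.16, with 95% intervals of -0.31 to 0.43, -0.56 to 0.30 and -0.41 to 0.10.

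The class I processing genes were not called either, by edgeR or DESeq2, with 0 at an unadjusted p under 0.05. Psmb8 and Psmb9, catalytic subunits of the immunoproteasome that cuts peptides for class I molecules, averaged 41.5 ± 3.75 and 25.3 ± 4.17 CPM in transplant livers (SD, n = 6), against 37.4 ± 5.31 and 23.9 ± 3.88 CPM in empty scaffold livers (SD, n = 8). Their log2 fold changes were 0.15 (95% interval -0.06 to 0.36) and 0.08 (95% interval -0.18 to 0.35). Tap1, a subunit of the transporter that brings the peptides to class I molecules, averaged 29.3 ± 5.56 CPM in transplant livers (SD, n = 6) and 33.1 ± 4.88 CPM in empty scaffold livers (SD, n = 8), at -0.18 (95% interval -0.44 to 0.08). After removal of the trends all 3 came within -0.08 to -0.06.

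Set side by side, the median log2 fold change was -0.02 over the 22 antiviral effectors, most of them type I targets, with 1 higher and 0 lower called, and -0.11 over the 11 interferon-gamma GTPases and class I processing genes, with 0 called. At an unadjusted p under 0.05 stood 7 of 22 and 2 of 11, beside 30.0% of all genes. With length and GC trends removed the same medians were -0.11 and -0.06. Without the 3 libraries of steepest length slope, which were also extreme in the GTPases, they were 0.07 and 0.11. Order and sign thus turned with the processing and with the libraries kept. No test of the difference between the sets was made.

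**Figure D2:**
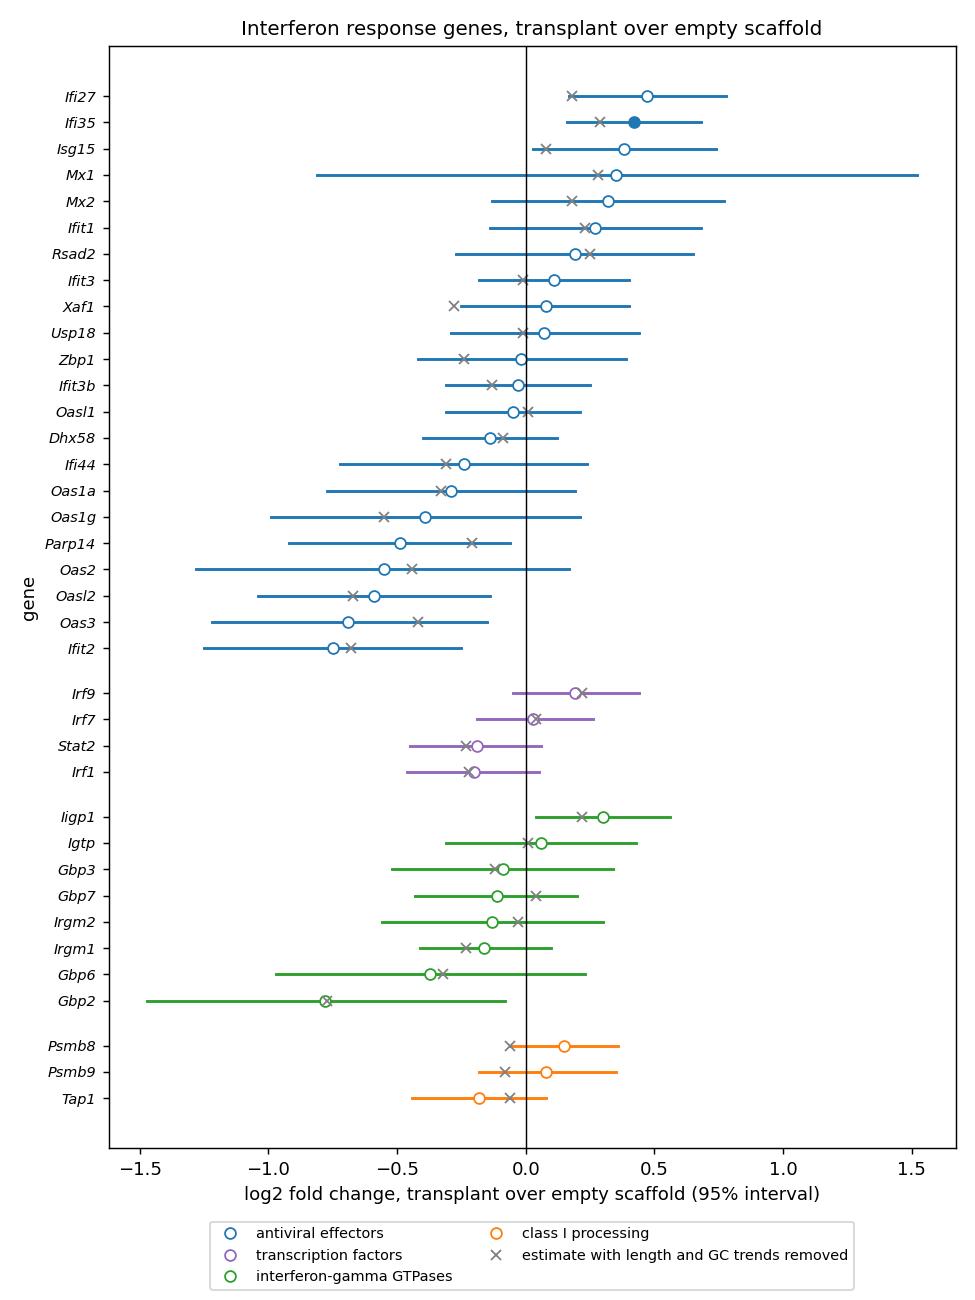
Log2 fold change of transplant over empty scaffold (horizontal axis, circles) with its 95% interval for each of the 37 genes, ordered within 4 roles from the highest to the lowest; the filled circle is the gene with an adjusted p under 0.05, and grey crosses are the estimates with length and GC trends removed. Only Ifi35 at 0.42 is filled, and the circles run from -0.78 for Gbp2 to 0.47 for Ifi27.

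The genes also varied between libraries of the same group. For 28 of the 37 genes the highest of all 14 libraries was transplant library 3 (12 genes), empty scaffold library 3 (10 genes) or empty scaffold library 4 (6 genes), so that the highest library was in the transplant group for 18 genes and in the empty scaffold group for 19. The 6 genes highest in empty scaffold library 4 were all GTPases. The lowest library was in the transplant group for 23 genes, 10 of them in transplant library 6, and in the empty scaffold group for 14. Over the 8 GTPases the median deviation from the gene mean, in log2(CPM + 0.5), was 0.54 in transplant library 3 and -0.43 in transplant library 1, against 0.61 in empty scaffold library 4 and 0.41 in empty scaffold library 3.

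**Figure D3:**
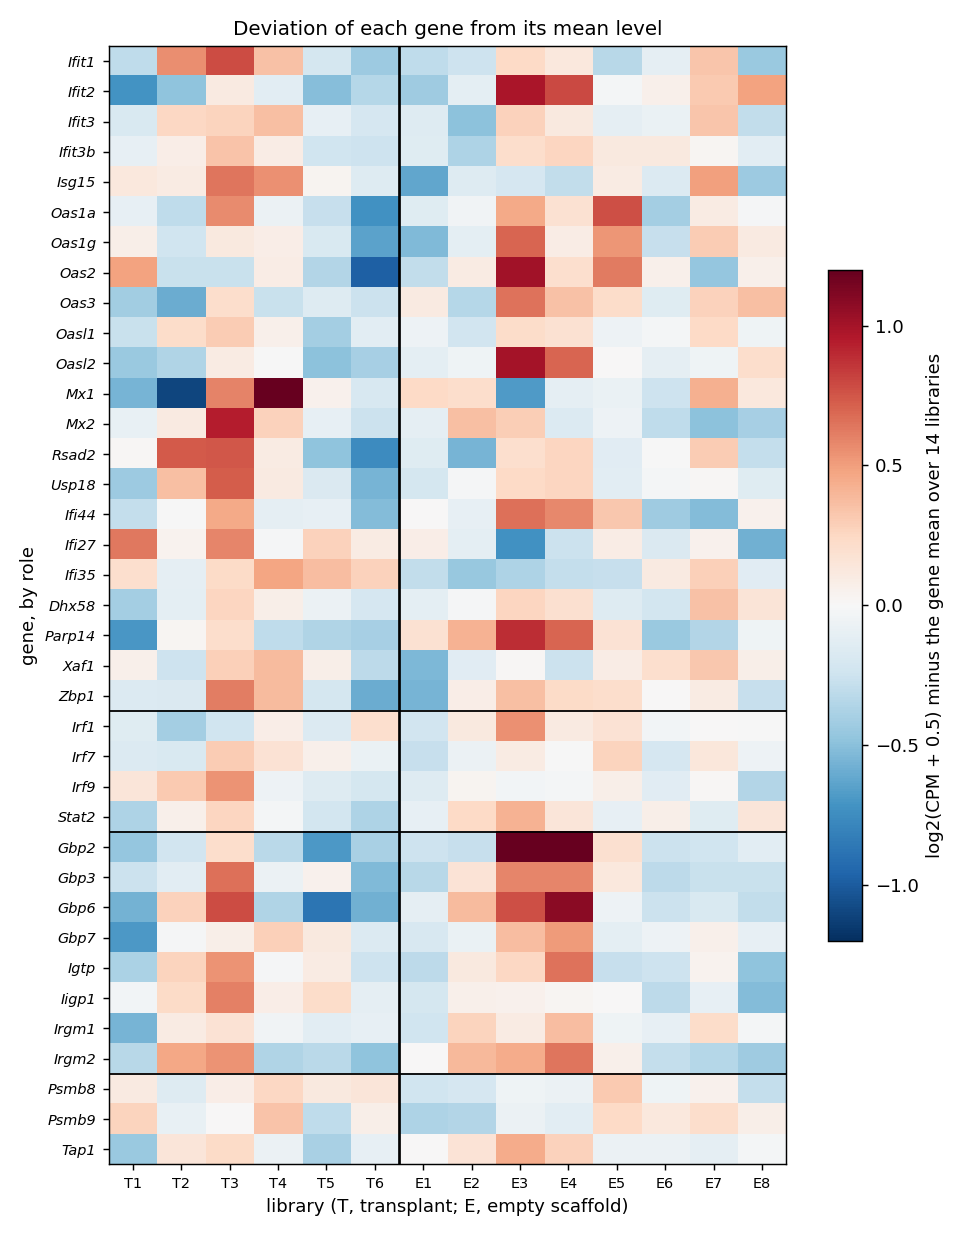
Deviation of each gene (rows, by role) in each library (columns, T1 to T6 transplant, E1 to E8 empty scaffold) from its mean over 14 libraries, in log2(CPM + 0.5), with the colour scale cut at -1.2 and 1.2. Columns T3, E3 and E4 are red for most genes, and they hold the highest value of 28 of the 37.

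The title numbers of the samples fall into a range below 100 (3 transplant, 4 empty scaffold) and a range of 100 or above (3 transplant, 4 empty scaffold), and the labels do not say what they stand for. Within the range of 100 or above, 5 members were called by edgeR, namely Isg15 (0.64), Ifi27 (0.68), Ifi35 (0.48) and Irf9 (0.39) as higher and Parp14 (-0.70) as lower, beside 26.0% of all genes (14.5% higher and 11.5% lower). In the range below 100 no member was called by edgeR, beside 0.0231% of all genes. An unadjusted p under 0.05 was held there by 4 members and by 1207 of 12970 genes. In that range the log2 fold changes of Isg15, Ifi27, Ifi35, Irf9 and Parp14 were 0.14, 0.26, 0.37, -0.04 and -0.21. The fold changes of 13 members had opposite signs in the 2 ranges. The difference between the ranges, tested as an interaction of group and range, was called for none of the 37 members and none of 13131 genes in edgeR. The members Rsad2 and Irf9 (adjusted p = 0.208 for each in edgeR) and 17.3% of all genes had an unadjusted p under 0.05 in that test. In the upper range the length slopes of the groups did not overlap (-0.31 to 0.03 in transplant libraries, 0.21 to 0.26 in empty scaffold libraries), so group and length slope cannot be told apart there.

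Across the 37 members, the log2 fold change was lower for longer transcripts, with a Pearson r of -0.51 against log2 length (n = 37 genes, which share their libraries), beside an r of -0.45 over all genes tested. With length and GC trends removed the r over the members was -0.14. The 6 members furthest above 0 were Ifi27 with 862 bases, Ifi35 with 1352, Isg15 with 703, Mx1 with 2006, Mx2 with 1675 and Iigp1 with 2942. The 6 furthest below 0 were Gbp2 with 2516 bases, Ifit2 with 3818, Oas3 with 4289, Oasl2 with 1909, Oas2 with 2849 and Parp14 with 7327. Apart from Iigp1, the members at the upper end had at most 2006 bases. Apart from Oasl2, those at the lower end had at least 2516. The lower end was thus mostly of longer transcripts, with some overlap in length between the ends. Gbp2 (-0.77), Ifit2 (-0.68) and Oasl2 (-0.67) had the lowest log2 fold changes with the trends removed, with adjusted p of 0.194, 0.0975 and 0.0978 in edgeR.

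**Figure D4:**
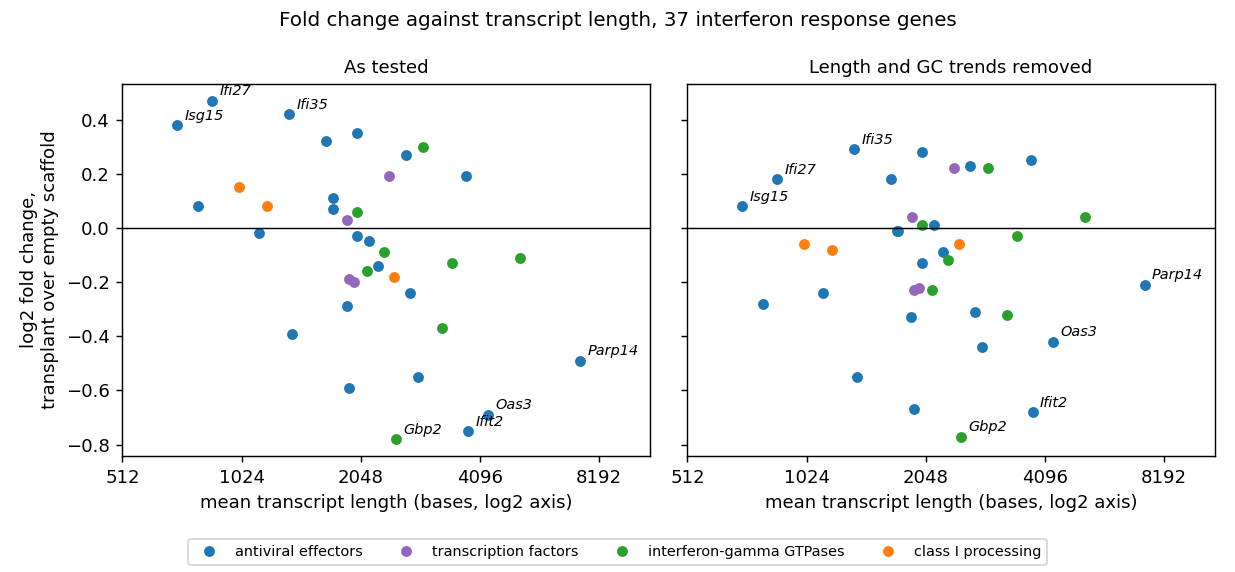
Log2 fold change of transplant over empty scaffold (vertical axis) against mean transcript length in bases (horizontal log2 axis) for the 37 genes, coloured by role, as tested (left) and with length and GC trends removed (right). The points slope down on the left (r = -0.51) and less so on the right (r = -0.14), where Ifi27 and Isg15 stand at 0.18 and 0.08.

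No gene of the pathway around the members was called by edgeR over all 14 libraries without a covariate. With the title number range as a covariate 2 of 5 receptor genes, 1 of 10 JAK, STAT and IRF genes and 2 of 14 sensors were called. The share of all genes called in that fit was 19.6%. Within title numbers of 100 or above 1 of 5, 5 of 10 and 2 of 15 of the same lists were called, beside 26.0% of all genes. Of 11 interferon genes looked for, 6 had no count in any library, and none had more than 2 counts in a library, below the 3 counts (0.104 to 0.155 CPM) that a count of 0 allows. Together they had 11 counts in 6 transplant libraries and 12 counts in 8 empty scaffold libraries, so a difference between the groups in interferon transcripts was not detectable at this depth. Receptors were readily measured: Ifnar2, a chain of the type I receptor, averaged 75.7 ± 8.54 CPM in transplant livers (SD, n = 6) and 64.1 ± 14.7 CPM in empty scaffold livers (SD, n = 8), and Ifngr1, of the interferon-gamma receptor, averaged 13.7 ± 1.47 CPM in transplant livers and 14.1 ± 1.49 CPM in empty scaffold livers. The 5 tested receptor genes had a median log2 fold change of -0.05 (0.04 with the trends removed), with 1 at an unadjusted p under 0.05. Of all genes tested, 30.0% stood under that threshold. Of 10 JAK, STAT and IRF genes 3 had an unadjusted p under 0.05, and the median was -0.20 (-0.06 with the trends removed). Irf8, a factor of myeloid cells that DESeq2 called, stood at -0.57 (edgeR adjusted p = 0.0522). The 8 negative regulators had a median of 0.07 (-0.05 with the trends removed), with 1 at an unadjusted p under 0.05. The 14 tested nucleic acid sensors and adaptors had a median of -0.25, with 13 below 0 and 4 at an unadjusted p under 0.05. With the trends removed that median was -0.10 with 9 of 14 below 0, and without the 3 libraries of steepest length slope -0.07 with 8 of 13. Ikbke, a kinase upstream of IRF3, stood at -0.50 (edgeR adjusted p = 0.0807).

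Further interferon targets outside the 37 were not called by edgeR over all 14 libraries without a covariate either. DESeq2 called 1 each of the next 3 lists (Apol9b, Gbp9 and H2-T23), beside 15.0% of all genes. With the title number range as a covariate edgeR called 2 of 33 effectors, 2 of 10 GTPases and 2 of 16 class I genes, beside 19.6% of all genes. Within title numbers of 100 or above it called 6 of 33, 1 of 10 and 6 of 16, beside 26.0% of all genes. Of 33 other interferon-stimulated effectors 8 had an unadjusted p under 0.05, beside 30.0% of all genes. Their median was -0.18, with Apol9b at 0.38 (edgeR adjusted p = 0.0777) and Ifi204 at -0.59 (adjusted p = 0.101). Of 10 other interferon-gamma GTPases 2 had an unadjusted p under 0.05, 9 stood below 0, and the median was -0.52. With the length and GC trends removed 9 stood below 0 at a median of -0.46, and within title numbers below 100 9 at -0.28. Without the 3 libraries of steepest length slope 7 stood below 0 and the median was -0.12. The summed level of those 10 was 31.2 to 73.5 CPM in transplant livers and 38.8 to 99.3 CPM in empty scaffold livers, where libraries 3 and 4 gave 92.6 and 99.3 CPM. Gbp9 stood at -0.98 ± 0.36 (SE, edgeR adjusted p = 0.0892), with 7.42 and 5.76 CPM in those same 2 libraries. The chemokine Cxcl10, an interferon-gamma target, was likewise highest there, at 9.56 and 9.04 CPM, and stood at -0.58 (adjusted p = 0.120). Of 16 other class I genes 5 had an unadjusted p under 0.05, at a median of 0.00, and H2-T23, a non-classical class I gene, averaged 302 ± 13.1 CPM in transplant livers (SD, n = 6) and 258 ± 19.1 CPM in empty scaffold livers (SD, n = 8), at 0.22 ± 0.08 (SE, edgeR adjusted p = 0.0768).

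Markers of other liver cells moved with the groups in part. Of 11 Kupffer cell markers, 5 fell in transplant livers (Csf1r, Cd5l, Cd68, C1qb and C1qc, edgeR adjusted p from 0.0133 to 0.0483), beside 4.23% of all genes called lower. With the trends removed 6 of the 11 were called, beside 3.56% of all genes. Without the 3 libraries of steepest length slope 0 of them and 0.0% of all genes were called. In that edgeR fit 10 of the 11 and 1633 of 12960 genes had an unadjusted p under 0.05. The median log2 fold change of the 11 was -0.66 over all libraries and without those 3, with all 11 below 0 in both, and their summed level was 155 to 234 CPM in transplant livers and 198 to 469 CPM in empty scaffold livers. In empty scaffold libraries 3 and 4, where the GTPases were high, that sum was 321 and 328 CPM, close to the group median of 325 CPM. Summed markers of T and natural killer cells, the usual sources of interferon-gamma, were 1.63 to 5.15 CPM in transplant livers and 2.55 to 5.99 CPM in empty scaffold livers. In those 2 libraries they were 4.61 and 4.21 CPM, above the empty scaffold median of 3.81 CPM. Other libraries went the other way. The highest sums, 5.15 and 5.99 CPM, were in transplant library 1 and empty scaffold library 2, where the median GTPase deviation was -0.43 and 0.14. Transplant library 3, with a GTPase deviation of 0.54, lay below the transplant median of 3.02 CPM. Summed markers of plasmacytoid dendritic cells, known for interferon-alpha, were 0.172 to 0.612 CPM in transplant livers and 0.150 to 0.946 CPM in empty scaffold livers. Empty scaffold libraries 3 and 4 had 0.780 and 0.496 CPM of these, beside a group median of 0.485 CPM. Among the tested markers of sinusoidal endothelium, stellate cells and neutrophils, 2 of 5 (Stab2 and Cdh5), 2 of 5 (Col3a1 and Lrat) and 1 of 2 (Csf3r) also fell in transplant livers. The share of all genes called lower was 4.23%. In contrast, Clec4g of the first list and S100a9 of the last stood at 0.11 and 0.21. With the length and GC trends removed none of those 5 genes was called (edgeR adjusted p of 0.0636 to 0.163), at -0.27 for Stab2, -0.46 for Cdh5, -1.12 for Col3a1, -0.31 for Lrat and -1.05 for Csf3r, against -0.51, -0.67, -1.29, -0.48 and -1.18 before. The part of these cells in the levels of the interferon response genes was not tested.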

How the data were processed

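Stranded mRNA libraries of liver were made from 200 ng of total RNA with a RIN above 7, per the labels' protocols. The submitters' processing notes name fastp 0.20, kallisto 0.46.1, DESeq2 1.38 and, as the genome, GRCm39, without saying what each was used for. The authors deposited 1 table per sample over 128803 transcripts which, per the file headers, holds an estimated count (not normalized), an effective length and a TPM value.

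Transcripts were assigned to genes with GENCODE M21, an annotation of GRCm38, which matched 120661 of them (93.68%) and 99.4% to 99.53% of the counts. Because the builds differ, no coordinates of the deposited data are given, and promoter coordinates are those of the RefSeq table in GRCm38.p6. Estimated counts were summed per gene and rounded, filtered with filterByExpr, scaled by TMM and tested with the quasi-likelihood F test of edgeR 4.0.16 in R 4.3.3 (two-sided, robust, group as the only term), with Benjamini-Hochberg adjustment over all tested genes and a call at an adjusted p under 0.05. Levels are CPM of the scaled library, and intervals are 95%. TPM values entered no test. For the fit with trends removed, splines on log2 transcript length and on GC content (4 degrees of freedom each) were fitted per library and used as offsets. DESeq2 1.42.0, other filters and scalings, the title number ranges, an effective length offset and leaving out each library were alternatives. The main fit and the fit with trends removed were run on simulated counts that held no length or GC trends. That check therefore does not cover such trends. Shared words are 31-base stretches of a gene's annotated transcripts that also occur in another gene.

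The members and lists were chosen with earlier results of these data known. All members may be named; of other lists, called genes and up to 4 others with the smallest adjusted p are named, and genes outside this (Ifngr1 and Cxcl10) were chosen after their values were seen. Replicates are numbered in accession order, which pairs no samples. The depths above limit genes of few counts such as Mx1, and the limit at a count of 0 covers counting error only.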

Additional observations from a re-analysis of the deposited data

Results flagged for a closer look

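Within 74 sets of values, each 1 member in 1 group, 2 had a single library set apart from the rest of its group by a gap that is large against the group's range, and chance gives about 1 such set in 20. Mx2 had 6.29 CPM in transplant library 3, where the next highest transplant library had 3.77 CPM. Without that library its log2 fold change was 0.08, against 0.32 with it. Irf1 had 37.5 CPM in empty scaffold library 3, where the next highest empty scaffold library had 28.9 CPM. Without that library its log2 fold change was -0.13, against -0.20 with it.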

How the results depend on the processing

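The number of genes called was 990 in the report, 936 with other size factors, 1011 with a filter at a mean of 1 CPM, 670 with no filter, 863 with length and GC trends removed and the title number range as covariate, 1965 with DESeq2, 2576 with the title number range as covariate, 3487 within title numbers of 100 or above and 3 below 100, 468 with length and GC trends removed, 315 with the effective length offset, and 138 (without transplant library 1) to 1910 (without empty scaffold library 7) when 1 library was left out. Without transplant library 1 and empty scaffold libraries 3 and 4, whose length slopes are steepest (an alternative chosen after seeing the data), it was 0. The members called, 1 in the report, were 3 with DESeq2 (Ifit2, Ifi27 and Ifi35), 4 with the covariate (Ifit2, Ifi27, Ifi35 and Parp14), 5 and 0 in the 2 ranges, 1 (Ifi35) with trends removed and the covariate, 0 with no filter, with trends removed, with the effective length offset and without those 3 libraries, and 0 to 3 when 1 library was left out. Without those 3 libraries Ifi35 stood at 0.38 (adjusted p = 0.302 in edgeR). The median of the class I processing genes was -0.10 in the range below 100, against 0.08. The cause of these shifts was not tested. Over 923 pairs of a member and an alternative, 14 gained and 16 lost a call, no called fold change turned its sign, and 60 turned it with no call on either side. No paired analysis was possible because the labels give the groups no shared replicate numbers.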
